A study of Mus musculus with 6 samples.

Results

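The genes described here are 10 genes of the imprinted domain on distal mouse chromosome 7 that contains Cdkn1c and Kcnq1, and of its flank. They are Cdkn1c, Phlda2, Cd81, Tssc4, Slc22a18, Osbpl5, Nap1l4, Ascl2, Kcnq1 and Dhcr7. They were chosen by name, through the symbols of the array's probe table (CDKN1C, PHLDA2, CD81, TSSC4, SLC22A18, OSBPL5, NAP1L4, ASCL2, KCNQ1 and DHCR7), and make up 10 of the 30774 gene names on the array. Every one of the 10 had a probe. In all they had 17 probes, since 4 genes had 1 probe, 5 had 2 and Ascl2 had 3.

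The samples were pre-B cells, the precursors that assemble the first antibody chains, sorted from mouse embryos at E17.5, late in gestation. Each of the 6 samples was hybridised to 1 Illumina MouseWG-6 v2 array, which reads a transcript by beads carrying an oligonucleotide probe. Both genotypes had a C57BL/6 background and carried the Eµ-Myc transgene, in which the immunoglobulin heavy chain enhancer drives the oncogene Myc in B lineage cells. The 3 Smchd1 null samples were in addition homozygous for a genetrap allele of Smchd1, and the other 3 samples were Smchd1 wildtype. The wildtype and null genotypes share the transgene, so no sample shows these genes without it. Smchd1 is a chromatin protein of the SMC family that helps to silence the inactive X chromosome and some imprinted and clustered genes. Neither the organ, the sorting gate nor whether an array holds 1 embryo is stated, so p-values measure only the spread between these samples, which may be technical.

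In an imprinted domain, genes are expressed mainly from the chromosome of one parent. In the Kcnq1 domain the long noncoding RNA Kcnq1ot1 is transcribed from the paternal chromosome, antisense to Kcnq1, and silences neighbouring genes on that chromosome. Cdkn1c, Phlda2, Slc22a18 and Kcnq1 are thereby expressed mainly from the maternal chromosome in mouse embryos, while for Ascl2, Cd81, Tssc4, Nap1l4, Osbpl5 and Dhcr7 parental bias is known mainly from the placenta. The array measures the sum of both chromosomes and does not separate the parental alleles.

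Values are log2 intensities after background correction and quantile normalization, and a probe counts as detected on an array when at most 5% of the negative control probes are as bright (detection p under 0.05). Between 15309 and 16447 of the 45281 probes were detected per array, and detected signals began at log2 levels of 5.08 to 5.19. Smchd1 itself was detected in 3 of 3 wildtype and 0 of 3 null samples by its brightest probe, at 9.61 ± 0.09 (SD, n = 3) and 4.87 ± 0.21 (SD, n = 3), at least 22.3-fold lower in null (limma adjusted p = 5.6e-05). Of 13 pre-B markers on the array 9 were detected on at least 3 arrays, and Dntt, the terminal transferase, was detected on none. One library stood apart. Null replicate 3 correlated with the other arrays at r of at most 0.956, where every other array reached at least 0.986 with its best match, and results that rest on it are given with and without it.

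The genes of the domain ran from clearly detected to below background. Cdkn1c, Cd81, Nap1l4, Tssc4 and Dhcr7 each had a probe that was detected on 6 of 6 arrays, although Dhcr7 lay close to the start of detection. Osbpl5 and Kcnq1 each had a probe detected on 4 arrays. Phlda2 was detected on 1 array, Slc22a18 on 1 array by each of its 2 probes, and Ascl2 on none by any of its 3 probes. Thus 8 of the 17 probes, from 7 genes, met the requirement of detection on at least 3 arrays and were tested, and 9 probes were not. The 9 untested probes gave 54 readings, of which 5 had a detection p under 0.05, and their log2 levels ran from 4.34 to 5.33.

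**Figure D1:**
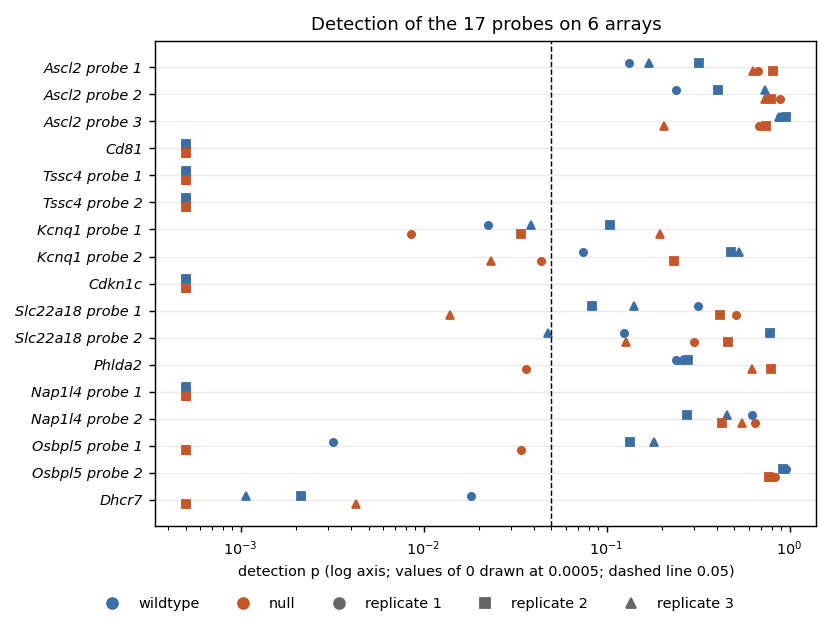
Detection p (log axis) of the 17 probes of the 10 genes, ordered along chromosome 7, on the 3 wildtype (blue) and 3 null (orange) arrays. Points left of the dashed line at 0.05 count as detected, and where the arrays of a group all have a p of 0 their points lie on top of each other, as for Cd81, Cdkn1c, both Tssc4 probes and Nap1l4 probe 1.

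Promoter sequences are shown for Cd81, detected on every array, and Ascl2, detected on none, as members at either end of this range. They are RefSeq promoters of build GRCm38.p6, from 250 bases before to 50 bases after the gene start, written 5′ to 3′ with each CpG dinucleotide, the site of DNA methylation in mammals, in capitals. The Cd81 promoter lies at chr7:143052500-143052799 on the plus strand and the Ascl2 promoter at chr7:142969215-142969514 on the minus strand.
Cd81: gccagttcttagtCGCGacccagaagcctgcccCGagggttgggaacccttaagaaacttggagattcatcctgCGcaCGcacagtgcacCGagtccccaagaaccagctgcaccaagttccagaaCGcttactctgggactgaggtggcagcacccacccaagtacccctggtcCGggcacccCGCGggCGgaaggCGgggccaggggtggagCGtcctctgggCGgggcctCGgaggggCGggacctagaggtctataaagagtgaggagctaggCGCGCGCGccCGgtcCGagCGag
Ascl2: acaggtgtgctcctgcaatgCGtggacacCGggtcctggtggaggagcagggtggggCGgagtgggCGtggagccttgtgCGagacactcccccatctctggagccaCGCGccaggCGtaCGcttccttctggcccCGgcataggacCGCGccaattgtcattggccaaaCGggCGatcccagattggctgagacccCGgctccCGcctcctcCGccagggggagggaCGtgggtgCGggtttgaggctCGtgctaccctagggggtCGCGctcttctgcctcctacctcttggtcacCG
Each of these promoters holds 23 CpG dinucleotides, a number reached by 21.5% of the 32851 promoters in the table, whose median is 7. The motif GGGCGG, searched on both strands and overlapping a CpG wherever it occurs, is in both, and in 35.7% of all promoters. The motif TATAAA is in that of Cd81 and not in that of Ascl2 (13.6% of all), and the palindrome CACGTG, an E-box that Myc can bind, is in neither (7.15% of all). Of the 10 genes 7 were in the table, and Cdkn1c, Nap1l4 and Kcnq1 were not. Slc22a18, which was near background, had 2 CpG dinucleotides and the untested gene Phlda2 had 26. The tested members covered much the same range, from 1 in one of the 3 listed promoters of Osbpl5 to 23 in those of Cd81 and Tssc4.

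No gene of the domain passed the test between genotypes. By limma, 0 of the 8 tested probes had an adjusted p under 0.05 and 0 had an unadjusted p under 0.05, where 0.0567% and 4.04% of all 15878 tested probes did. The adjusted p-values of the 8 lay between 0.934 and 0.959. The wildtype and null values overlapped for each of the 8, and over all tested probes 9.61% did not overlap. The log2 fold change, null over wildtype, was positive for 6 probes and negative for 2, with a median of 0.12, beside -0.02 over all tested probes.

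**Figure D2:**
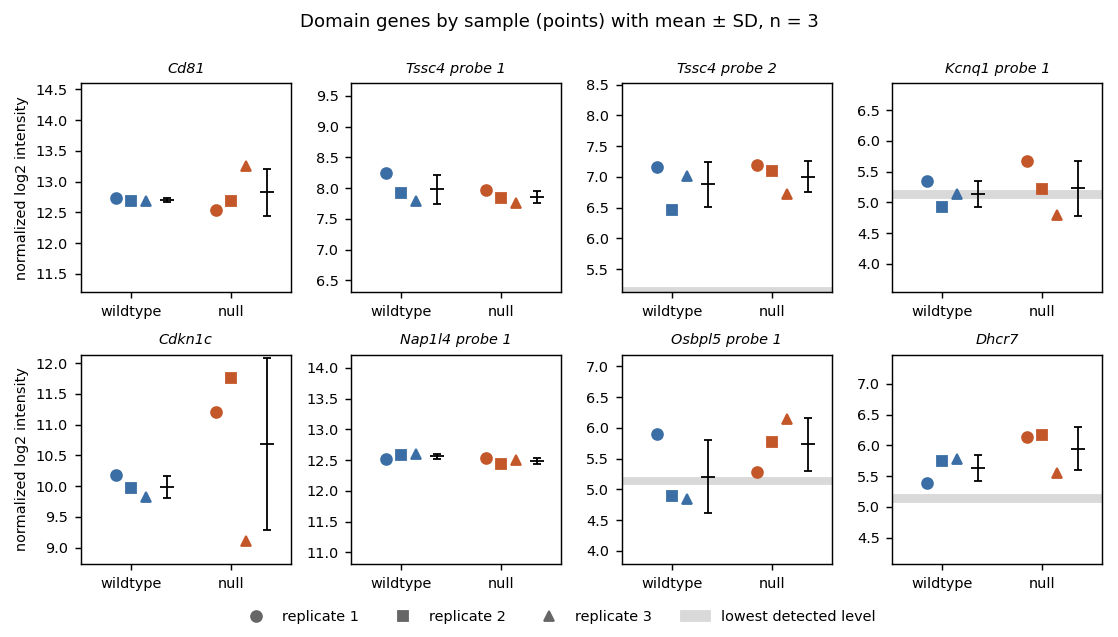
Normalized log2 intensity of the 8 tested probes in each wildtype (blue) and null (orange) sample, with mean ± SD (n = 3) as black bars and the same span on each vertical axis. Cdkn1c spans 2.65 among the null samples and 0.35 among the wildtype samples, while Nap1l4 spans 0.16 over all 6, and the grey band marks where detection begins.

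Cdkn1c encodes p57Kip2, a Cdk inhibitor that restrains the entry into S phase and keeps stem and progenitor cells quiescent. Its probe read 10.18, 9.96 and 9.82 in wildtype replicates 1, 2 and 3, and 11.20, 11.76 and 9.11 in null replicates 1, 2 and 3. Null replicates 1 and 2 thus lay 1.03 and 1.59 above the highest wildtype sample, while null replicate 3 lay below every wildtype sample, by 0.72. The log2 fold change was 0.70 (SE 0.62, limma adjusted p = 0.934), and its 95% interval runs from 0.596-fold to 4.44-fold.

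On the deposited linear scale Cdkn1c had a mean bead intensity of 1113, 1574.4 and 1089.1 in the wildtype samples and 2036, 3526 and 642.2 in the null samples, over 41 to 52 beads. The standard error over beads, which covers the reading of 1 array and not the spread between samples, was 2.55% to 3.15% of the intensity. The brightest null sample exceeded the dimmest 5.49-fold, and the wildtype samples differed at most 1.45-fold. The null range of 2.65 on the log2 scale was reached by 0.787% of all tested probes, and the wildtype range of 0.35 by 36.6%. The median range over all tested probes was 0.52 in null and 0.27 in wildtype.

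Without null replicate 3 the Cdkn1c log2 fold change was 1.49 (SE 0.20, 95% interval 1.02 to 1.97), a 2.82-fold higher level in null. Its adjusted p was then 0.0609 and its unadjusted p 1.69e-04. In that comparison 0.258% of all tested probes passed, 7.46% had an unadjusted p under 0.05 and 22.1% did not overlap, and of the 8 domain probes those of Cdkn1c and Dhcr7 met the last 2 conditions and none passed. Without null replicate 1 the log2 fold change was 0.45 and without null replicate 2 it was 0.17, and leaving out any wildtype sample gave 0.62 to 0.80. With array weights, which counted null replicate 3 at 0.165 and the other arrays at 0.664 to 2.22, it was 1.55 (SE 0.30, adjusted p = 0.108). That weighting called 0.327% of all probes after adjustment and 11.4% before it, against 0 and 3 of the 8 domain probes, those of Cdkn1c, Dhcr7 and Osbpl5. The sign was positive under each of the 16 alternatives, and the threshold was passed under none. With the authors' values, either change of the detection filter, the intensity trend or the replicate block the log2 fold change stayed at 0.70. These leave the group means unchanged, so their sign is no separate check.

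**Figure D3:**
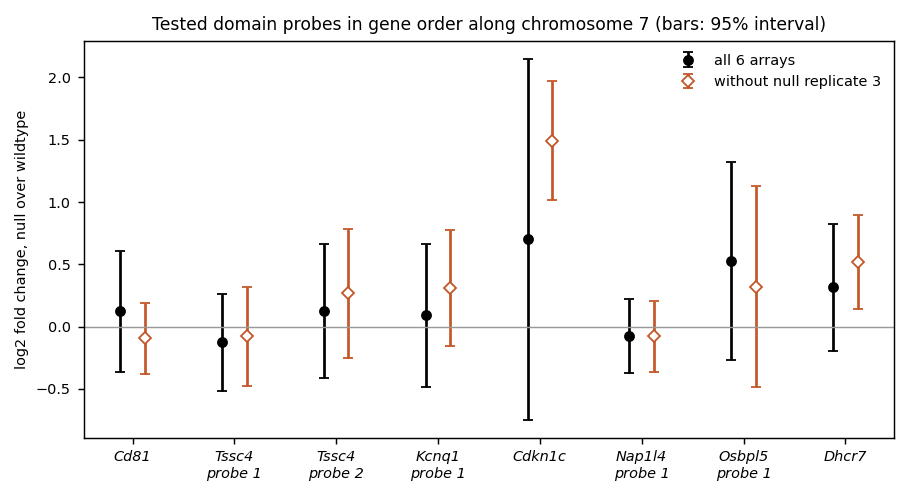
Log2 fold change, null over wildtype, of the 8 tested probes in gene order along chromosome 7, with 95% intervals from limma, for all 6 arrays (black) and without null replicate 3 (orange). Cdkn1c moves from 0.70 to 1.49 and Dhcr7 from 0.31 to 0.52 when that array is left out, and the Nap1l4 interval stays within -0.38 to 0.23.

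Markers of other cell types also differed between the samples, and not all of them followed Cdkn1c. The 11 tested hepatocyte markers had a summed linear level of 2393.8 to 3878.2 in wildtype, 301.5 and 314.4 in null replicates 1 and 2, and 947 in null replicate 3, and Alb, Apob and Fgb were detected on no array. All 11 were lower in null, 4 of them past the threshold (Ambp, Afp, Kng1 and Itih3). The null means of these 4, at 4.92, 4.76, 4.87 and 4.74, lie below the start of detection. Detection mainly in wildtype let such markers into the test, so their shared direction follows in part from that filter. With detection required on all 6 arrays 0 of the 11 were tested. In null replicate 3, where Cdkn1c was lowest, all 11 also lay below every wildtype sample. Without null replicate 3, 9 of the 11 passed, with median scaling or array weights 10, without wildtype replicate 1, without the detection filter, with no background correction or with normexp without controls 1, and without any other single array or with the replicate block 0, while all 11 stayed lower in each of these fits. The 12 tested myeloid markers summed to 5502.1 to 14166.4 in wildtype, 1923.4 and 2619.3 in null replicates 1 and 2, and 13625.2 in null replicate 3, and Cd14 and Itgam were detected on no array. Of these 12, 2 were higher and 10 lower, with 0 past the threshold in limma and 6 at an unadjusted p under 0.05, beside 4.04% of all tested probes. With median scaling 6 passed. Over all 15878 tested probes 9 passed in the main fit, 56 with median scaling, 52 with array weights and 41 without null replicate 3. The 9 tested pre-B markers summed to 25950.9 to 27303.5 in wildtype, 23679.3 and 27126.6 in null replicates 1 and 2, and 77968.7 in null replicate 3. Null replicate 3, the sample lowest in Cdkn1c, thus had the highest sum of pre-B markers and a sum of myeloid markers within the wildtype range. Single myeloid markers differed there, since 5 of the 12 lay above every wildtype sample, among them the myeloperoxidase gene Mpo at 12.06 against at most 9.83 in wildtype, and the other 7 lay within the wildtype values. Of the other marker sets, 8 erythroid, 4 T and NK cell, 2 megakaryocyte and mast cell and 2 endothelial and stromal markers were tested, with medians of -0.15, -0.50, 0.21 and 0.30, and 0 of them passed. These medians were -0.37, -0.15, -0.74 and 0.16 without null replicate 3. Null replicate 3 also had the highest erythroid sum, at 58509.8 against 25133.3 to 41056.8 in wildtype, with null replicates 1 and 2 at 16899.2 and 46229.2. Its megakaryocyte and mast cell sum was 564.4 against 104.2 to 107.4 in wildtype and 59.8 and 66.3 in the other null samples. Its endothelial and stromal sum was 404.3 against 202.2 to 230.0 in wildtype and 242.6 and 248.7 in the other null samples. Of the 2 endothelial and stromal markers, 1 lay above every wildtype sample in null replicate 3 and 1 lay within the wildtype values. Cdh5, Col1a1, Col3a1, Dcn and Pdgfrb of that set were detected on no array. The part of these cell types in the Cdkn1c values was not tested, and fewer cells of a type and less RNA per cell cannot be told apart in bulk samples.

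**Figure D4:**
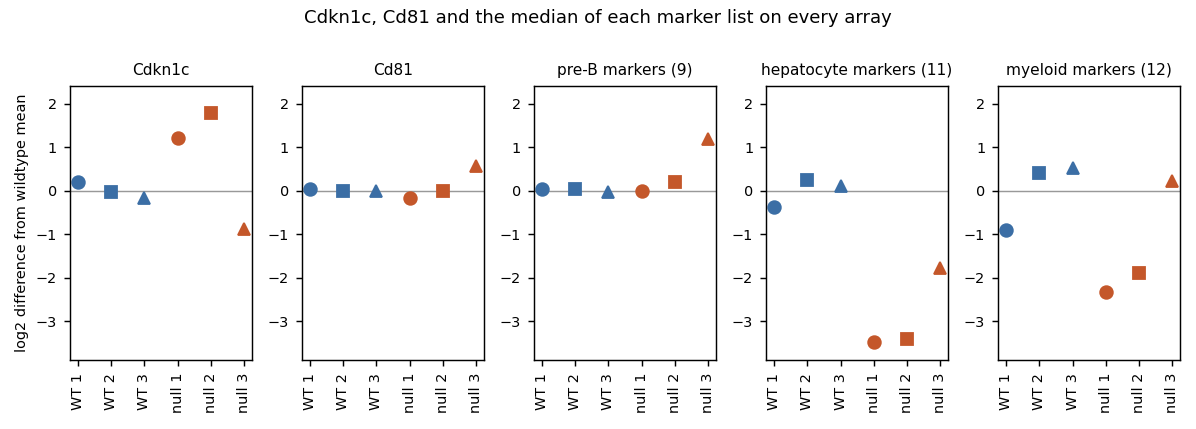
Log2 difference from the wildtype mean on each array for Cdkn1c, for Cd81 and for the median of the pre-B, hepatocyte and myeloid marker lists (number of genes in parentheses). Null replicate 3 is low for Cdkn1c and the hepatocyte markers and high for Cd81 and the pre-B markers. Null replicates 1 and 2 are high for Cdkn1c and low for the hepatocyte and myeloid markers.

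The other growth regulators of the domain were at background. Phlda2, a small pleckstrin homology protein that restrains growth of the placenta, read 4.78, 4.72 and 4.76 in wildtype and 5.27, 4.48 and 4.52 in null. Its only detected reading, in null replicate 1, had a detection p of 0.0363. Ascl2, a basic helix-loop-helix factor needed for trophoblast development, read at most 4.92 on any of its 3 probes. Apart from the 1 detected reading of Phlda2, these levels lie below the start of detection, so no fold is given for either gene.

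Cd81 was stable in wildtype and varied more in null. It encodes a tetraspanin, a membrane protein that organises receptors at the B cell surface. Its probe read 12.74, 12.69 and 12.68 in wildtype and 12.54, 12.68 and 13.26 in null. The wildtype samples lay within 0.06 of each other, null replicate 3 lay above all of them, and the other null samples lay at or below them. The log2 fold change was 0.12 (SE 0.21, adjusted p = 0.943), with a 95% interval of 0.778-fold to 1.52-fold, and it was -0.09 without null replicate 3, whose pre-B marker sum is given above. With median scaling, which lowered the median log2 fold change of all tested probes to -0.18, the Cd81 value was -0.09, or 0.08 above that median.

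The channel gene and the transporter gene of the domain were near the limit of detection. Kcnq1, the pore subunit of a voltage-gated potassium channel, read 5.35, 4.92 and 5.14 in wildtype and 5.68, 5.22 and 4.79 in null on its tested probe, detected in 2 samples of each genotype. The values interleave, and the log2 fold change was 0.09 (SE 0.25, adjusted p = 0.959, 95% interval 0.715-fold to 1.59-fold), and 0.31 (SE 0.19) without null replicate 3. Its other probe was detected in null replicates 1 and 3 only, between 4.59 and 5.23 over all samples. Slc22a18, a member of the organic cation transporter family, was detected by one probe in null replicate 3, at 5.33, and by the other in wildtype replicate 3, at 5.11. No sample was detected by both of its probes.

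The domain's lipid genes lay close to the start of detection. Dhcr7 encodes the enzyme of the last step of cholesterol synthesis by way of 7-dehydrocholesterol, and its probe read 5.38, 5.74 and 5.77 in wildtype and 6.13, 6.16 and 5.54 in null. As for Cdkn1c, null replicates 1 and 2 lay above every wildtype sample, but null replicate 3 lay within the wildtype values. The log2 fold change was 0.31 (SE 0.22, adjusted p = 0.934, 95% interval 0.875-fold to 1.77-fold), and without null replicate 3 it was 0.52 (SE 0.16, adjusted p = 0.495). Osbpl5, a lipid transfer protein at contacts between the endoplasmic reticulum and the plasma membrane, read 5.89, 4.89 and 4.83 in wildtype and 5.29, 5.76 and 6.14 in null on its tested probe. It was detected in 3 of 3 null samples and in 1 of 3 wildtype samples, and that wildtype sample, replicate 1, lay above 2 of the null samples. The log2 fold change was 0.53 (SE 0.34, adjusted p = 0.934), and without wildtype replicate 1 it was 0.87 (SE 0.27, adjusted p = 0.989), the groups then not overlapping, as for 18.5% of all probes. Without null replicate 3 it was 0.32 (SE 0.34). The second Osbpl5 probe was detected on no array.

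Nap1l4 and Tssc4 varied little between genotypes. Nap1l4, a histone chaperone of the nucleosome assembly protein family, read 12.51, 12.58 and 12.59 in wildtype and 12.53, 12.43 and 12.49 in null on its brighter probe. It had the narrowest range of the 8 tested probes, 0.16 over all samples, and its log2 fold change was -0.08 (SE 0.13, adjusted p = 0.943, 95% interval 0.771-fold to 1.17-fold). Its other probe was detected on no array. Tssc4, which takes part in the assembly of spliceosomal particles, had 2 probes detected on every array. The brighter one read 8.24, 7.92 and 7.79 in wildtype and 7.97, 7.84 and 7.76 in null, and the other 7.15, 6.45 and 7.02 in wildtype and 7.19, 7.10 and 6.71 in null. The probes gave opposite signs, -0.13 (SE 0.17, adjusted p = 0.936) and 0.12 (SE 0.23, adjusted p = 0.946), each within its error of 0. With median scaling the brighter Tssc4 probe lay lower in all null than in all wildtype samples, as 5.74% of all probes then did not overlap, at -0.30 (SE 0.32, adjusted p = 0.966), or -0.12 relative to all probes.

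Other genes of the same region were compared as a list of 32 genes, from Tollip to Ccnd1 in chromosome order, with 31 on the array. Of these, 14 were tested, 5 were higher and 9 lower, none passed in either direction, and the median log2 fold change was -0.05. That median was 0.004 without null replicate 3. An unadjusted p under 0.05 was found for 2 of the 14, beside 4.04% of all tested probes. The smallest p belonged to Igf2, the paternally expressed growth factor of the neighbouring H19 domain, at -3.00 on the log2 scale (SE 0.71, adjusted p = 0.794), or -3.92 (SE 0.22, adjusted p = 0.00112) without null replicate 3. Igf2 was detected on 4 arrays, and its null values were 5.01, 5.07 and 7.81 in replicates 1, 2 and 3. Those of null replicates 1 and 2 lie below the start of detection. The value without null replicate 3 thus rests on undetected null readings and is a lower limit of the difference. Igf2 is also made by fetal liver, and its values stand beside the hepatocyte marker sums given above, whose part in it was not tested. Tspan32, a tetraspanin gene between Ascl2 and Cd81, followed at 0.42 (SE 0.18, adjusted p = 0.934), higher in every null than in every wildtype sample on its brightest probe, as 9.61% of all probes did not overlap. Its dimmer probe, listed as Tssc6, was detected on all 6 arrays between 5.32 and 7.11 and is not given by genotype here. Tnfrsf22, a decoy receptor gene, had 0.41 (SE 0.29, adjusted p = 0.934) on a probe listed as C130035G06RIK and matched by synonym. The brightest probe listed as Tnfrsf22 was detected on 5 arrays, between 4.945 and 5.667, and is not given by genotype either.

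Kcnq1ot1, the noncoding RNA of the domain, was singled out for its role after its values were seen. It had 1 probe, under its older name Tssc8, detected on all 6 arrays. It read 5.62, 6.18 and 5.80 in wildtype and 5.32, 6.16 and 5.53 in null. The genotypes overlap, replicate 2 being the highest of each, and the log2 fold change was -0.20 (SE 0.26, adjusted p = 0.934). It was -0.13 (SE 0.28) without null replicate 3.

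**Figure D5:**
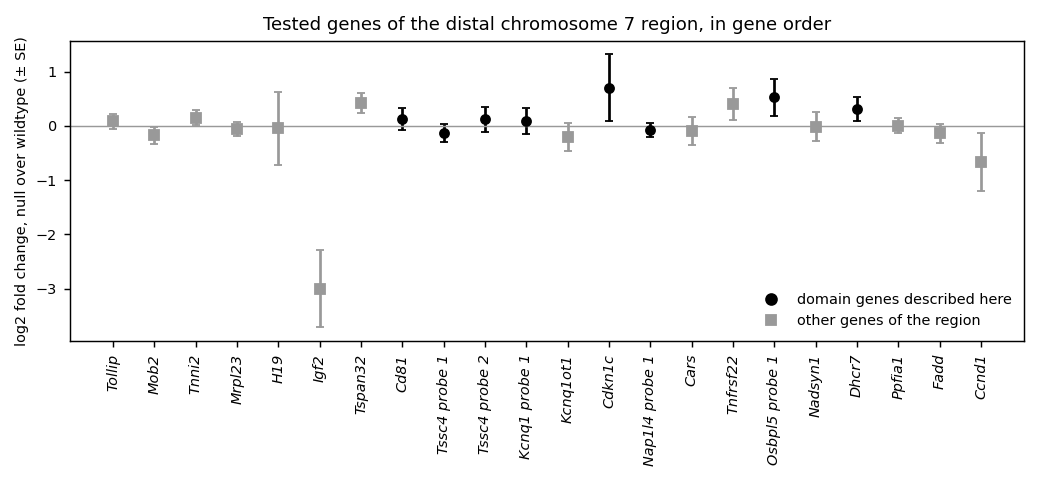
Log2 fold change, null over wildtype, with its SE, of the 8 tested domain probes (black circles) and 14 tested other genes of the region (grey squares), in gene order along chromosome 7. Igf2 lies at -3.00, and the domain probes lie between -0.13 and 0.70.

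Partners and relatives of the domain genes gave no call for any list, apart from Smchd1 itself. Of 15 Cdk partners, cyclins and related inhibitors of Cdkn1c, 11 were higher and 4 lower with a median of 0.08, and 0 passed in limma and 0 at an unadjusted p under 0.05. The median was 0.03 without null replicate 3. Limk1, a kinase that p57 binds, had a log2 fold change of 0.44 (SE 0.25), cyclin D2 (Ccnd2) had 0.94 (SE 0.55) and Cdkn1a, which encodes p21, had 1.59 (SE 0.95), each with an adjusted p of 0.934. The Cdkn1a value rests on null replicate 3, at 9.19 against 5.09 and 5.81 in the other null samples, and was 0.34 without it, and that of Ccnd2 was then 0.42. On that array, therefore, Cdkn1a was high where Cdkn1c was low, but 10 of the 15 genes lay above every wildtype sample there and 2 below. Cdkn1a was detected on 3 arrays, and its wildtype readings of 4.96, 5.29 and 5.08 lay near the start of detection.

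Of 14 tested co-receptor partners of Cd81 and other tetraspanins, 13 were higher and 1 lower, with a median of 0.30, and 0 passed, with 2 at an unadjusted p under 0.05, beside 4.04% of all tested probes. Without null replicate 3 the median was 0.03. Cd9, a tetraspanin of many blood cells, had -0.70 (SE 0.38), or -1.15 (SE 0.19) without null replicate 3, and Tspan32 is given above.

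Of 18 tested genes of cholesterol synthesis and its control, the pathway of Dhcr7, 13 were higher and 5 lower with a median of 0.22, and 0 passed, with 1 at an unadjusted p under 0.05, beside the same 4.04%. The median was 0.14 without null replicate 3. Mvd, mevalonate diphosphate decarboxylase, had a log2 fold change of 0.51 (SE 0.14), Mvk, mevalonate kinase, had 0.30 (SE 0.14) and Ebp, a sterol isomerase, had 0.26 (SE 0.16), each with an adjusted p of 0.934. For these 3 of the 18 genes the groups did not overlap, as for 9.61% of all tested probes. Mvk was detected on 4 arrays, and its wildtype readings of 5.10, 5.21 and 5.07 lay about the start of detection. For Ebp the groups all but met, with null replicate 2 and wildtype replicate 2 both at 9.33, and its value was 0.15 without null replicate 3. The list stood 0.12, 0.11 and 0.35 above the wildtype mean in null replicates 1, 2 and 3.

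Of 10 tested paralogs of the domain genes, 6 were higher and 4 lower with a median of 0.02, and 0 passed, 0 also at an unadjusted p under 0.05. The median was -0.09 without null replicate 3, with 7 of the 10 lower. Kcnq5 had 0.46 (SE 0.34), the oxysterol-binding relative Osbpl2 had -0.18 (SE 0.15) and Nap1l1 had -0.19 (SE 0.16), each with an adjusted p of 0.934. Without null replicate 3 they had 0.77, -0.25 and -0.07. Of 11 tested silencing factors with a known part in imprinting, 3 were higher and 8 lower, with a median of -0.05, and 1, Smchd1, passed. Their median was 0.005 without null replicate 3.

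The patterns most like Cdkn1c over the 6 arrays, by Pearson correlation with the genes whose range was at least 1, 1823 in all, were those of Gal3st1 (r = 0.993), Mpp3 (r = 0.988) and Eps8l2 (r = 0.980). Each was highest in null replicate 2 and lowest in null replicate 3, and Gal3st1 read 5.29, 5.31 and 5.24 in wildtype and 6.36, 6.77 and 4.38 in null. In null replicate 3 Gal3st1 and Mpp3 (4.835) lay below the start of detection, so their lowest values are undetected readings. The patterns most like Cd81, among 3541 genes with at least its range, were those of Igfbp4, Cd8b1 and Plxnd1, each at an r of 0.998. All 3 were highest in null replicate 3. These are descriptions of 6 arrays that share 1 BeadChip and in which null replicate 3 carries much of the variation.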

How the data were processed

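Total RNA of 6 samples was measured on 6 arrays. All lay on 1 BeadChip, where wildtype and null arrays alternated, which leaves no slide effect to fit. Per the file headers, GenomeStudio 1.8.0 exported the deposited intensity values, mean bead intensities on a linear scale, without normalization, together with the standard deviation and number of beads. The deposited detection columns hold detection p-values or, as a fraction, 1 minus that p-value. The authors' log2 values were made with neqc, per the deposited description, and R 2.15.1, limma 3.12.1 and BeadStudio are listed in the submitters' processing notes.

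The intensities of 45281 probes and 974 control probes, 936 of them negative, were processed here with neqc (offset 16) of limma 3.58.1 in R 4.3.3. The result differed from the authors' log2 values by at most 5e-09, so scale and centring are known. Probes with a detection p under 0.05 on at least 3 arrays entered the test (15878). Null was compared with wildtype by limma (lmFit, eBayes, two-sided, no covariate), 3 arrays against 3, with Benjamini-Hochberg adjustment over all tested probes and a threshold of 0.05. The fit was tested on simulated data. A list gene was represented by its brightest tested probe. Probe names were matched to RefSeq (GRCm38.p6), 27400 by symbol and 8339 by synonym, while 9542 kept the file's name. The array tables name no build, so gene coordinates are given for promoters only.

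The members, the lists and the rule for named genes (all members, genes past the threshold or the 3 with the smallest p in each list, and the 3 closest patterns of Cdkn1c and Cd81) were chosen with earlier results of these data known. Of the marker lists, members are named under this rule only for hepatocytes, whose 4 genes past the threshold are given. The myeloid marker Mpo was named outside the rule, for its value in null replicate 3. Some markers detected on no array are named as such. A gene of another list that the rule names is not reported here. Alternatives changed the background correction, offset, scaling or detection filter, used the authors' values, an intensity trend, weights per array or a block for the replicate number, or left out each array. The number of arrays limits the precision.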

Additional observations from a re-analysis of the deposited data

How the results depend on the processing

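No member probe passed the threshold under any of the 16 alternatives by limma, 0 without any 1 array included, with 0 to 3 at an unadjusted p under 0.05. The 3 were Cdkn1c, Dhcr7 and Osbpl5 with array weights, where 11.4% of all probes did. Probes whose groups do not overlap numbered 1 with median scaling (Tssc4, lower), 4 of 17 without the detection filter (the 3 Ascl2 probes and 1 of Osbpl5, all below detection, beside 9.39% of all probes), and 0 to 2 when 1 array was left out. The 2 were Cdkn1c and Dhcr7 without null replicate 3, and Nap1l4 and Osbpl5 without wildtype replicate 1, where 22.1% and 18.5% of all probes did not overlap.

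Signs turned for 3 genes near 0. Cd81 lay at -0.095 with median scaling, -0.014 with array weights and -0.094 to 0.267 when 1 array was left out, negative only without null replicate 3. The dimmer Tssc4 probe lay at -0.009 with median scaling and -0.087 (without wildtype replicate 2) to 0.268 when 1 array was left out, and the brighter at -0.223 to 0.005, positive only without wildtype replicate 1. Kcnq1 lay at -0.134 to 0.309, negative without null replicate 1 or wildtype replicate 2 (-0.017). The cause was not tested. Of 127 genes of the lists and marker sets 5 passed, and 1 to 11 did when an array was left out, 11 without null replicate 3 and 1 or 2 otherwise.

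Over all probes 9 passed, 56 with median scaling, 52 with array weights, 41 without null replicate 3, 3 with no background correction, 5 with normexp without controls, 6 without the detection filter, 2 with detection on all 6 arrays and 2 to 4 without any other array. Samples of the same replicate number did not deviate together (correlations of 0.02, 0.04 and -0.01), and not every sample correlated best with its own number. With the replicate block 2 probes passed over all and 0 of the members, and Cdkn1c had 0.70 (SE 0.48, adjusted p = 0.942). Signal close to background limits Kcnq1, Osbpl5 and Dhcr7. Their log2 fold changes of 0.091, 0.526 and 0.315 fell to 0.022, 0.143 and 0.096 with no background correction, 0.035, 0.248 and 0.154 with normexp without controls and 0.056, 0.287 and 0.199 with an offset of 50. Such signal gives no fold for Phlda2, Slc22a18 and Ascl2.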
